A study of Mus musculus with 4 samples.

Results

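A set of 9 genes that steer thymocytes through and out of the thymus were examined in TTchem-seq libraries of double positive (DP) thymocytes, the stage that carries both CD4 and CD8. They were taken by symbol from the table of fragment counts, in which all 9 were found among 24984 genes. The group holds the egress receptor S1pr1 with its regulators Klf2 and Cd69, the chemokine receptors Ccr7, Ccr9, Ccr4 and Cxcr4, the integrin subunit Itgae, and the semaphorin receptor Plxnd1. TTchem-seq marks RNA made during a brief exposure to 4-thiouridine, so its signal over a gene, introns included, measures transcriptional output and not the stock of mRNA or the receptor on the cell surface.

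There were 2 libraries of wild-type (WT) and 2 of conditional knockout (cKO) DP cells, from mice of 6 to 8 weeks, cultured for 0.5 h before labelling. WT mice had the genotype Tox4;F/F, and cKO mice had Tox4;F/F;Lck+, so both carried loxP-flanked Tox4 and the cKO mice in addition a Cre whose expression the proximal promoter of Lck drives in early T cells, which removes exons 4 to 6 of Tox4. The control thus has no Cre, and an effect of Cre itself cannot be told apart from that of the deletion. How the cells of these libraries were purified is not given in the sources used here. For its chromatin assays the study describes beads against CD4, which would also retain CD4 single positive cells. The labels do not say that each library came from another mouse, and p-values measure only the spread between these libraries.

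As background, chemokine receptors place thymocytes in the thymus. CXCR4 holds early and DP cells near CXCL12 in the cortex, CCR9 responds to CCL25, and CCR7 and CCR4 draw positively selected cells toward the medulla, as does plexin D1, the receptor for semaphorin 3E. Mature cells then leave through S1PR1, which follows sphingosine 1-phosphate (S1P) into the blood, is switched on by the transcription factor KLF2 and is pulled from the surface by CD69. The integrin αE subunit (CD103), encoded by Itgae, pairs with β7 and binds E-cadherin.

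The libraries held between 38429786 and 48690591 fragments, and 11625 genes had a mean of at least 1 CPM (fragments of a gene scaled to a common total of all genes). Tox4 was at 74.0 and 70.3 CPM in WT and at 59.3 and 57.2 CPM in cKO cells, a log2 fold change of -0.31 (DESeq2 adjusted p = 0.0453). The adjusted p of Tox4 was 0.153 with edgeR, 0.143 with limma voom and 0.361 with the replicate number as a block, and 0.196 to 0.792 on leaving out any 1 library, at log2 fold changes of -0.34 to -0.28. This count covers the whole locus, which Mettl3 and Rab2b overlap on the opposite strand, and not the deleted exons alone. By Western blot of unsorted and sorted thymocytes, the study judged the deletion in its Lck-Cre mice efficient. The 14 defining genes of DP cells, Cd4, Cd8a and Rag1 among them, were all above 1 CPM and summed to 10830 to 12500 CPM, with 14.3% of them called beside 4.06% of all genes. Of these, Cd8a was at -0.54 on the log2 scale (DESeq2 adjusted p = 1.21e-05, and 0.108 with edgeR and 0.0998 with limma voom) and Rag1 was just past the threshold (DESeq2 adjusted p = 0.04995, and 0.291 with edgeR and 0.767 without WT replicate 2). WT replicate 1 stood apart in Xist, the RNA that coats the inactive X chromosome, at 172 CPM against at most 2.36 CPM in the other libraries.

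Sequence just before the start of a gene was available from RefSeq (GRCm38.p6) for 5 of the 9 genes and is shown for 4: Klf2 and Plxnd1, whose cKO libraries both lay below both WT libraries, and Ccr9 and Cxcr4, the highest per length, whose genotypes overlapped. Ccr7, S1pr1, Cd69 and Itgae had no entry. Each run is the 250 bases upstream of the start of the deposited gene, written 5′ to 3′ on the gene's own strand, at chr8:72318812-72319061 (plus) for Klf2, chr6:115995006-115995255 (minus) for Plxnd1, chr9:123766961-123767210 (plus) for Ccr9 and chr1:128592300-128592549 (minus) for Cxcr4. Capitals mark CACCC, the core bound by KLF factors, and GGGCGG, the GC box bound by Sp factors, read on both strands.
Klf2: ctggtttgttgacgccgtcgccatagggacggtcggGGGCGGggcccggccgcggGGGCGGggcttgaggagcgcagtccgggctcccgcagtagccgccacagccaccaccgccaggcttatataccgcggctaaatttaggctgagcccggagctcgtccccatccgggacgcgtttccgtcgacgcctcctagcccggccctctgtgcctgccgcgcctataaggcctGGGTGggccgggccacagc
Plxnd1: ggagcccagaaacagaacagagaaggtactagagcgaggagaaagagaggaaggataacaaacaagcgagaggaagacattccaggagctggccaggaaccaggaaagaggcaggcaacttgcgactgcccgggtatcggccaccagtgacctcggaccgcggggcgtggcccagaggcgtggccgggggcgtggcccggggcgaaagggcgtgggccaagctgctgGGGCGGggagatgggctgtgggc
Ccr9: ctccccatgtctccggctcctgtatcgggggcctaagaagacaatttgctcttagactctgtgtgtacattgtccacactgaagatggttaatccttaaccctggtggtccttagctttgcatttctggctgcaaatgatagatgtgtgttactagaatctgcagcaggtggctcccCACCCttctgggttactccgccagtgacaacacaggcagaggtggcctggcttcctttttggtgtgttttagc
Cxcr4: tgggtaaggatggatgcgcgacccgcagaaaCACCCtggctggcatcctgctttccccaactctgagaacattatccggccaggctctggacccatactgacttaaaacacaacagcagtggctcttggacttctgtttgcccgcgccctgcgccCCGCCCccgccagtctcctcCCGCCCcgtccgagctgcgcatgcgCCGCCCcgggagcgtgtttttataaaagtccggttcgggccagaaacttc

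The upstream sequence differed widely in composition. GC content was 71.2% in Klf2, 64.8% in Plxnd1, 61.2% in Cxcr4, 50.4% in Ccr9 and 46.4% in Ccr4, beside a median of 52.4% over 32544 promoters of the same length. CpG dinucleotides numbered 29 in Klf2, 19 in Cxcr4, 16 in Plxnd1 and 3 each in Ccr9 and Ccr4, against a median of 6. CACCC occurred once in Klf2, Cxcr4, Ccr9 and Ccr4 and not in Plxnd1, and 52.1% of all promoters hold it. GGGCGG occurred 3 times in Cxcr4, 2 times in Klf2 and 1 time in Plxnd1, and 33.0% of all promoters hold it. Klf2, Plxnd1 and Cxcr4 were therefore above the median in GC and CpG. Ccr7 and Cd69, whose cKO libraries were also below both WT libraries, had no sequence here. A link of composition to the change between genotypes was not tested. Among 6 further motifs searched on both strands, TATAAA (12.3% of promoters) was matched in Cxcr4, on both strands of 1 stretch in which the matches overlap, TGACTCA (4.46%) 1 time in Ccr4, and GTAAACA (3.17%), TGACGTCA (1.55%), CCGGAAGT (2.9%) and the NF-kB site (0.36%) in none of the 5. A match is a string of letters in this window and not a measured site.

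Transcription of the 9 genes spanned nearly 3 orders of magnitude when CPM were divided by gene length in kb. Cxcr4 was highest at 46.9 ± 4.99 CPM per kb (SD, n = 4 libraries), followed by Ccr9 at 40.4 ± 1.94, at percentiles 99.2 and 98.9 of the genes with at least 1 CPM. Klf2 at 25.8 ± 3.94 and Ccr7 at 20.5 ± 3.07 came next, then Plxnd1 at 12.3 ± 1.52 and S1pr1 at 11.5 ± 0.278. The egress receptor S1pr1 was thus at percentile 95.2 of transcription per kb in these libraries and its activator Klf2 at percentile 98.3. Ccr7 and Plxnd1 were at 97.6 and 95.6. Cd69 (1.93 ± 0.390) and Ccr4 (1.57 ± 0.276) were near the middle of all genes, at percentiles 58.9 and 52.4. Itgae was barely transcribed at 0.050 ± 0.0124 CPM per kb, percentile 4.93.

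Neighbours in this order did not all differ beyond the spread of their libraries. The ranges over the 4 libraries overlapped for Cxcr4 and Ccr9, for Klf2 and Ccr7, for Plxnd1 and S1pr1, and for Cd69 and Ccr4. They were apart between these pairs and between Ccr4 and Itgae. In CPM, without division by length, the order of the 5 leading genes became Ccr9, Plxnd1, Ccr7, Cxcr4 and Klf2, because Plxnd1 (40195 bp) and Ccr9 (16247 bp) are long and Klf2 (2593 bp) and Cxcr4 (4101 bp) short. The share of the counted span that is intronic also varied, from 30.0% in Klf2 and 34.5% in S1pr1 to 82.8% in Plxnd1 and 93.2% in Itgae.

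**Figure D1:**
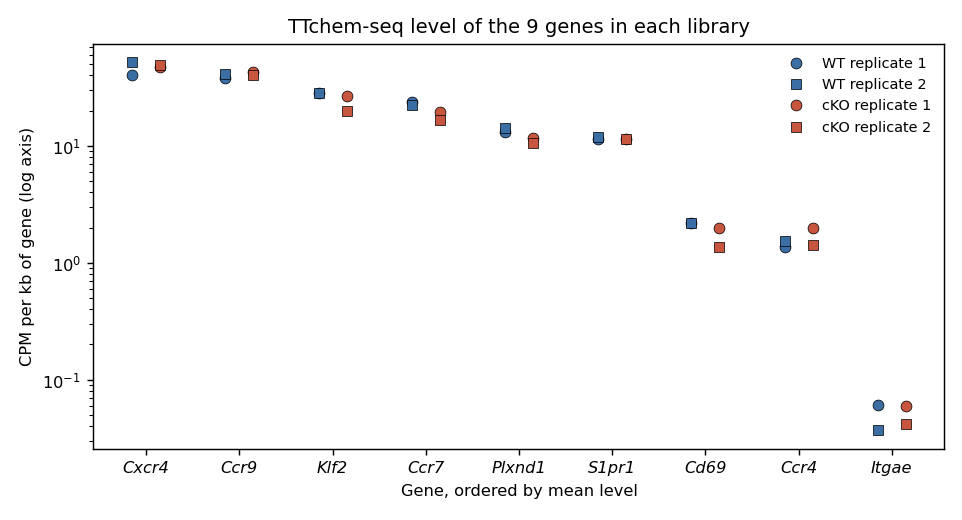
Level of each gene in CPM per kb of gene (log axis) in WT (blue) and cKO (red) libraries, replicate 1 as circles and replicate 2 as squares, with genes ordered by their mean. The genes fall from 46.9 CPM per kb for Cxcr4 to 0.050 for Itgae, and both cKO points lie below both WT points for Klf2, Ccr7, Plxnd1 and Cd69.

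Output of Ccr7 and Plxnd1 was called decreased in cKO cells by DESeq2, and none of the 9 genes was called increased. A gene was called when the DESeq2 p-value adjusted over all genes was under 0.05, the fold change at least 1.2 and the mean at least 1 CPM. By this rule 2 of the 9 genes were called, beside 4.06% of the 10624 genes tested (1.71% decreased and 2.34% increased). With edgeR, limma voom or the replicate number as a block, 0 of the 9 were called. The 9 genes were chosen with earlier results of these data known. Both cKO libraries lay below both WT libraries for 4 of the 9, Klf2, Ccr7, Cd69 and Plxnd1, and above both for 0, where 24.3% and 25.3% of tested genes did so. The median log2 fold change was -0.03 over the 9 genes and 0.00 over all genes tested. These are bulk libraries, in which fewer cells of a type and less RNA per cell cannot be told apart.

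Ccr7, which draws cells to the medulla, had 255 and 243 CPM in WT and 213 and 181 CPM in cKO, from 7183 to 11845 fragments. The genotypes did not overlap, and cKO replicate 2 was the lowest. Mean output was 249 ± 8.51 CPM in WT and 197 ± 22.9 CPM in cKO (SD, n = 2), a change of -21.2%, with a log2 fold change of -0.34 (SE 0.0910, 95% interval -0.52 to -0.17) and a DESeq2 adjusted p of 0.00714. The adjusted p was 0.164 with the edgeR quasi-likelihood test and 0.142 with limma voom. It was 0.213 without WT replicate 1 and 0.758 without cKO replicate 2, and 0.0363 and 0.0206 without WT replicate 2 and cKO replicate 1, with log2 fold changes between -0.46 and -0.23. The gene lies on chromosome 11, 99144199 to 99155077, minus strand (GRCm38), and 81.8% of it is intron.

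Plxnd1, the semaphorin 3E receptor that guides selected thymocytes to the medulla, was at 523 and 566 CPM in WT and at 467 and 427 CPM in cKO. All WT values were above all cKO values, and each genotype's libraries differed by less than the gap between the means. Mean output was 544 ± 30.2 CPM in WT and 447 ± 28.7 CPM in cKO (SD, n = 2), a change of -18.1%, with a log2 fold change of -0.29 (SE 0.0793, 95% interval -0.44 to -0.13) and a DESeq2 adjusted p of 0.0112. The edgeR and limma voom adjusted p were 0.166 and 0.143. Leaving out WT replicate 1 kept the call (0.0169), and leaving out WT replicate 2, cKO replicate 1 or cKO replicate 2 ended it (0.219, 0.181 and 0.754), with log2 fold changes between -0.35 and -0.22. At chromosome 6, 115954811 to 115995005, minus strand, it has 36 exons.

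Klf2, the transcription factor that switches on S1pr1, was at 73.5 and 73.1 CPM in WT and at 69.0 and 51.8 CPM in cKO. The WT libraries were nearly equal, and cKO replicate 2 was far below cKO replicate 1, by 0.41 on the log2(CPM + 0.5) scale. The log2 fold change was -0.28 (SE 0.128, 95% interval -0.53 to -0.03), with an unadjusted p of 0.0271 and a DESeq2 adjusted p of 0.256, so that the gene was not called. It went from -0.49 without cKO replicate 1 to -0.09 without cKO replicate 2, and rested for the larger part on the latter library. Klf2 lies on chromosome 8, 72319062 to 72321654, plus strand, and is the shortest of the 9.

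S1pr1 itself, the receptor through which mature thymocytes leave, did not differ beyond the spread of the libraries. It was at 52.5 and 55.2 CPM in WT and at 52.4 and 53.1 CPM in cKO, and the genotypes overlapped. On the log2 scale cKO differed from WT by -0.03 (SE 0.106, DESeq2 adjusted p = 0.949), and its 95% interval of -0.24 to 0.18 leaves room for a change of that size either way. Relative to its level it had the narrowest spread over the 4 libraries of the 9 genes. The ratio of Klf2 to S1pr1 fragments was 1.40 and 1.32 in WT and 1.32 and 0.977 in cKO, and cKO replicate 2 alone was clearly below the others. S1pr1 occupies chromosome 3, 115710433 to 115715055, minus strand.

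Cd69, an early activation antigen that binds S1PR1 and removes it from the surface, was at 17.5 and 17.7 CPM in WT and at 16.0 and 10.97 CPM in cKO. The pattern was that of Klf2, with WT libraries nearly equal and cKO replicate 2 lowest, here by 0.53 on the log2(CPM + 0.5) scale against cKO replicate 1. The log2 fold change was -0.39 (SE 0.199, 95% interval -0.78 to 0.00), with an unadjusted p of 0.0521 and a DESeq2 adjusted p of 0.359. Although the largest of the 9 in size, this difference did not pass the test, and it was -0.14 without cKO replicate 2. Cd69 was measured from 436 to 861 fragments, on chromosome 6, 129267324 to 129275369, minus strand.

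Ccr9, the receptor for thymic CCL25, had the highest count of the 9 genes, with 25857 to 32598 fragments. It was at 615 and 670 CPM in WT and at 689 and 650 CPM in cKO, and the genotypes overlapped. Between genotypes the log2 fold change was 0.06 (SE 0.0761, 95% interval -0.09 to 0.21, DESeq2 adjusted p = 0.833). Ccr9 maps to chromosome 9, 123767211 to 123783457, plus strand. With the highest count and no call, it served as a yardstick inside each library, a choice made after its values were seen. Fragments of Ccr7 per fragment of Ccr9 were 0.415 and 0.363 in WT and 0.309 and 0.278 in cKO. Fragments of Plxnd1 per fragment of Ccr9 were 0.850 and 0.845 in WT and 0.678 and 0.656 in cKO. Both ratios were lower in both cKO libraries. They do not depend on how libraries were scaled, but they restate the values already given.

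Cxcr4, the CXCL12 receptor, was at 164 and 212 CPM in WT and at 192 and 201 CPM in cKO. Both cKO values lay between the WT values, which differed by 0.37 on the log2(CPM + 0.5) scale. The log2 fold change was 0.06 (SE 0.110, 95% interval -0.16 to 0.28, DESeq2 adjusted p = 0.889), and leaving out WT replicate 1 or 2 gave -0.12 or 0.26. The gene is on chromosome 1, 128588199 to 128592299, minus strand, and was counted with fractions of fragments in 2 libraries. Fragments of Ccr7 per fragment of Cxcr4 were 1.55 and 1.15 in WT and 1.11 and 0.898 in cKO, and those of Ccr7 per fragment of S1pr1 were 4.86 and 4.41 in WT and 4.06 and 3.40 in cKO. These denominators were also chosen after their values were seen, so the ratios describe the Ccr7 values again and are no further evidence, and against Cxcr4 the nearest libraries of the genotypes were close, at 1.15 and 1.11.

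Ccr4, the receptor for CCL17 and CCL22, was at 8.52 and 9.61 CPM in WT and at 12.3 and 8.78 CPM in cKO, from 349 to 472 fragments. Only cKO replicate 1 was high, and cKO replicate 2 fell within the WT range. The difference on the log2 scale was 0.21 (SE 0.230, 95% interval -0.24 to 0.66, DESeq2 adjusted p = 0.783), and -0.04 without cKO replicate 1. Ccr4 lies on chromosome 9, 114490316 to 114496544, minus strand.

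Itgae was at 3.47 and 2.10 CPM in WT and at 3.41 and 2.39 CPM in cKO, with only 95 to 148 fragments over 56867 bp (chromosome 11, 73090583 to 73147449, plus strand, 31 exons). Each genotype had 1 higher and 1 lower library. On the log2 scale the difference was 0.06 (SE 0.408, DESeq2 adjusted p = 0.979), and the 95% interval of -0.74 to 0.86 shows that changes of moderate size were not detectable at this depth. Haspin, on the opposite strand, lies inside Itgae over 2811 bp and was itself at 9.08 CPM. Whether counting used strand is not given in the sources used here, so the Itgae count is uncertain.

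**Figure D2:**
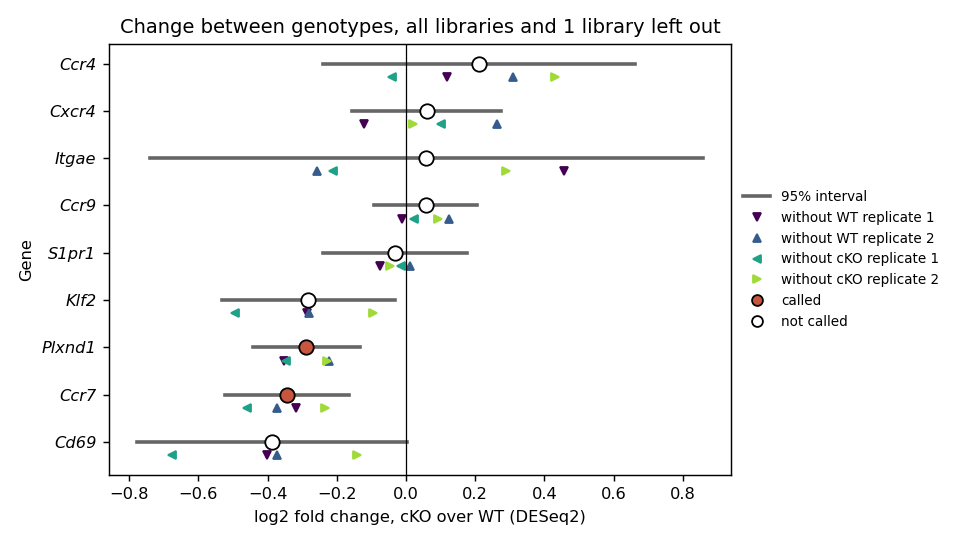
Log2 fold change of each gene, cKO over WT, from DESeq2 with all 4 libraries (circles, red where called, bars the 95% interval) and with 1 library left out (triangles). Ccr7 at -0.34 and Plxnd1 at -0.29 are called and stay below 0 in every fit, and Klf2 and Cd69 approach 0 without cKO replicate 2.

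**Figure D3:**
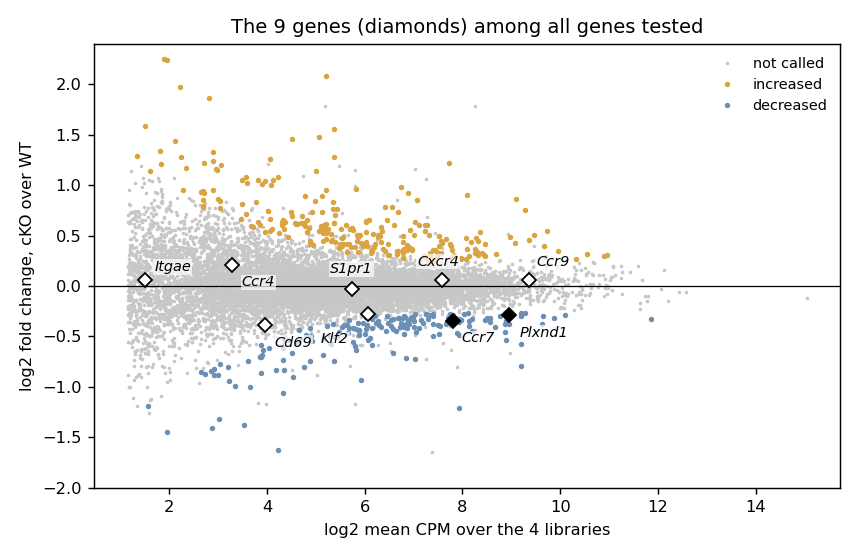
Log2 fold change against log2 mean CPM for the 10624 genes tested, in grey where not called, with increased genes in yellow, decreased genes in blue and the 9 genes as diamonds, black where called. Ccr7 and Plxnd1 lie among the decreased genes at high CPM and the other members among genes not called, and Adamts13 and Xist lie below the plotted range.

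The profiles of the called genes over the 4 libraries were compared with those of all genes of at least 1 CPM, by Euclidean distance of mean-centred log2(CPM + 0.5). Nearest to Ccr7 were Lfng (0.0339), a glycosyltransferase that modifies Notch, Arsa (0.0398), which encodes arylsulfatase A, and the kinase gene Mknk2 (0.0498), of which Mknk2 was called with a log2 fold change of -0.34. Nearest to Plxnd1 were the kinase gene Syk (0.0225), Gramd1a (0.0254) and Abhd14b (0.0268), of which Gramd1a was called with -0.28. With 4 libraries many genes share a profile, and these distances are a description.

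Most other chemokine receptors were hardly transcribed. The list of 23 receptor genes also held Gpr183, a receptor for oxysterols and not for chemokines. Of these 23, 7 had a mean of at least 1 CPM and 6 had an adjusted p. Ccr7 was the 1 gene called, or 16.7% beside 4.06% of all genes (median log2 fold change 0.10). The others tested outside the 4 receptors described above, Gpr183 and Ccr8, were not called (DESeq2 adjusted p = 0.845 and 0.902). Ackr3, a scavenger of CXCL12, and Xcr1 had the smallest unadjusted p of these (DESeq2, 0.0448 and 0.110, with no adjusted p), on almost no signal: Ackr3 had 15 fragments in cKO replicate 1 and 0 in each other library, and Xcr1 had 1, 0, 9 and 4 fragments in WT replicates 1 and 2 and cKO replicates 1 and 2.

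In the S1P axis, with receptors, kinases, lyase and egress factors, 12 genes reported here were tested, and 0 were called by DESeq2, edgeR or limma voom (median log2 fold change -0.03). Over all genes tested, 0.499% were called by edgeR and 0.525% by limma voom. At an unadjusted p under 0.05 there were 3 with DESeq2, Klf2, Arhgef1 and S1pr4, and 2 with edgeR, Arhgef1 and S1pr4, where 14.3% and 15.6% of all genes passed. Arhgef1, which acts downstream of S1P receptors, was at 402 and 381 CPM in WT and at 336 and 340 CPM in cKO, -0.22 on the log2 scale (SE 0.0728, DESeq2 adjusted p = 0.0656). S1pr4, another S1P receptor of lymphocytes, was at 44.6 and 42.1 CPM in WT and at 35.3 and 35.4 CPM in cKO, -0.30 on the log2 scale (SE 0.117, DESeq2 adjusted p = 0.152). Both cKO libraries were below both WT libraries for these genes, and neither passed the test.

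Among 22 tested of 25 integrin subunits and activators, 2 were called, or 9.09% beside 4.06% of all genes (median -0.02). Apbb1ip was increased and Itga6 decreased. Apbb1ip, which encodes the RAP1 effector RIAM that helps switch integrins on, was at 358 and 374 CPM in WT and at 479 and 437 CPM in cKO, 0.32 on the log2 scale (SE 0.0774, DESeq2 adjusted p = 0.00217). Itga6, the laminin binding α6 subunit, was at 72.5 and 77.1 CPM in WT and at 58.4 and 56.2 CPM in cKO, -0.39 on the log2 scale (SE 0.101, adjusted p = 0.00581). For both genes the genotypes did not overlap. Neither was called with edgeR (0.125 and 0.108) or limma voom (0.104 and 0.0992). The call of Itga6 was lost on leaving out any 1 library (0.0705 to 0.532), and that of Apbb1ip was kept only without WT replicate 2 (0.00712).

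Among plexins, semaphorins and their partners, the coreceptors moved opposite to Plxnd1. Of 16 genes tested, Nrp1, Nrp2 and Rras2 were increased and Plxnd1 was decreased, 25.0% beside 4.06% of all genes (median 0.07). Nrp1, a neuropilin that binds class 3 semaphorins, was at 20.5 and 29.8 CPM in WT and at 52.2 and 45.6 CPM in cKO, 0.95 on the log2 scale (SE 0.164, DESeq2 adjusted p = 1.58e-06), and it was called without each library in turn. Nrp2 was at 4.83 and 6.49 CPM in WT and at 9.26 and 11.4 CPM in cKO, 0.86 on the log2 scale (SE 0.250, adjusted p = 0.0183). Every cKO library was above every WT library for both neuropilins. Rras2, a small GTPase of the RAS family, was at 232 and 219 CPM in WT and at 276 and 271 CPM in cKO, 0.28 on the log2 scale (SE 0.0760, adjusted p = 0.0104). The call of Nrp2 was kept only without WT replicate 2 (0.0370), and that of Rras2 was lost on leaving out any 1 library (0.0654 to 0.542). With edgeR the adjusted p was 0.0963 for Nrp1, 0.149 for Nrp2 and 0.136 for Rras2, and with limma voom 0.0716, 0.148 and 0.115, so that DESeq2 alone called them. Sema3e, the ligand of plexin D1, had 1 to 9 fragments per library.

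Downstream of the receptors, Gng2 was the 1 gene called among 33 tested of 34 chemotaxis signalling genes (median -0.05). This is 3.03% of the list, below the 4.06% of all genes. Gng2 encodes a G protein γ subunit and was at 32.3 and 28.4 CPM in WT and at 16.8 and 15.6 CPM in cKO. Its output was lower by 46.6%, or -0.91 on the log2 scale (SE 0.148, DESeq2 adjusted p = 3.24e-07), and it was called without each library in turn, with edgeR (0.0337) and with limma voom (0.0363), but not with edgeR and the replicate block. Over the 5 lists without the 9 genes, 6 of 81 tested genes were called, 4 increased and 2 decreased, which is 7.41% beside 4.06% of all genes.

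**Figure D4:**
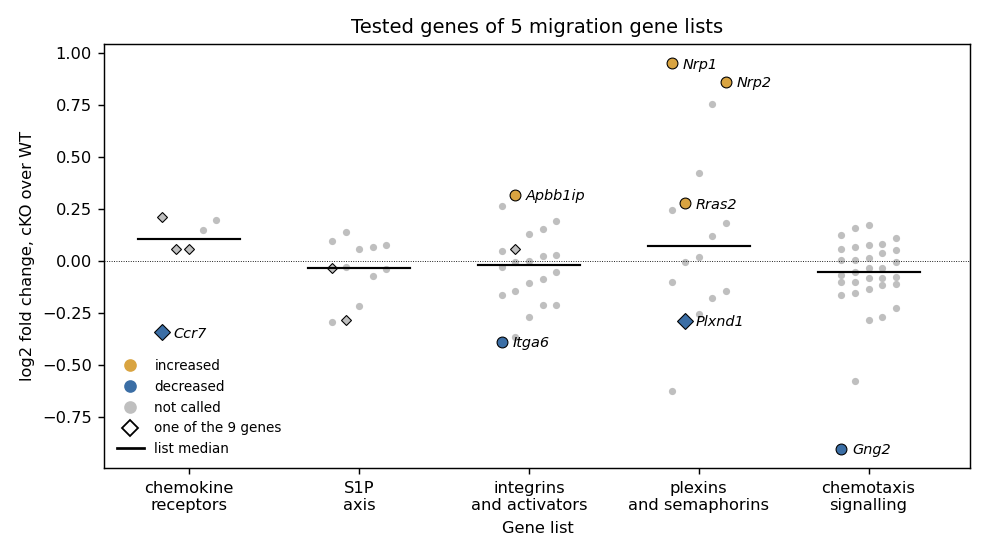
Log2 fold change, cKO over WT, of the tested genes of the 5 lists (one point a gene, diamonds for the 9 genes, lines for list medians), with called genes coloured and named. The medians lie between -0.05 and 0.10, and the called genes reach from -0.91 for Gng2 to 0.95 for Nrp1.

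Markers of the cells that a DP preparation can hold were set beside these values. Summed levels of 20 genes higher in mature single positive cells, in which S1pr1, Klf2 and Ccr7 are known to be high, were 1250 and 1295 CPM in WT and 1304 and 1151 CPM in cKO. Of the 20, 7 were called, or 35.0% beside 4.06% of all genes, with Il7r, Bcl2 and Runx3 increased and Slfn2, Gimap3, Gimap4 and Gimap6 decreased (median -0.16). Both cKO libraries were below both WT libraries for 8 of the 20, a larger share than the 24.3% of all genes. They were above both for 3, a smaller share than the 25.3% of all genes. In the sum the genotypes overlapped. None of the 7 was called with edgeR (adjusted p = 0.0632 to 0.197) or limma voom (0.0602 to 0.182). None of the 20 was at 0 or below 1 CPM in all libraries.

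Genes induced by T cell receptor signals in selected cells, where Ccr7 and Cd69 are known to appear, summed to 2120 and 2185 CPM in WT and to 2750 and 2625 CPM in cKO. Of 14 tested, Nr4a3, Tox and Ikzf2 were increased and Egr1 was decreased, 28.6% of the list beside 4.06% of all genes, so the higher sum in cKO came largely from Tox and Ikzf2. Of these calls Ikzf2 alone held with edgeR and limma voom (Tox 0.108 and 0.0905, Nr4a3 0.183 and 0.182, Egr1 0.0932 and 0.0992). Immediate early genes, which respond within minutes to stimulation and to handling, summed to 974 and 1149 CPM in WT and to 924 and 859 CPM in cKO. Of 14 tested, 4 were decreased (Jun, Ier5, Btg2 and Zfp36), or 28.6% beside 1.71% of all genes, at a median of -0.32 on the log2 scale. None of these 4 was called with edgeR (adjusted p = 0.120 to 0.211) or with the replicate block (0.0933 to 0.204). Without WT replicate 2 the median was -0.18. In the sum cKO replicate 2 was lowest, as for Klf2, Cd69, Ccr7 and Plxnd1.

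Proliferation genes summed to 571 CPM in WT replicate 1, below the 877 to 1021 CPM of the other 3 libraries. Of 21 tested, 19 were higher in cKO by the fitted value (median log2 fold change 0.34). For 9 of the 21, both cKO libraries were above both WT libraries, a larger share than the 25.3% of all genes. Without WT replicate 1, 13 of the 21 were higher in cKO, at a median of 0.03. Kif11 was called, increased (4.76% of the list beside 2.34% of all genes), and the call was lost without WT replicate 1, cKO replicate 1 or cKO replicate 2 (adjusted p = 0.521, 0.507 and 0.211). Early double negative genes were at 79.5 to 91.1 CPM in sum, B cell genes at 18.3 to 25.9 CPM, myeloid genes at 26.9 to 31.4 CPM and erythroid genes at 0 to 0.729 CPM, with 7 of 7 erythroid, 6 of 12 myeloid and 4 of 8 B cell genes below 1 CPM in all libraries. The part of single positive cells, of signalled cells, of handling and of cycling cells in the changes of Ccr7 and Plxnd1 was not tested.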

How the data were processed

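The submitters' processing notes list fastp 0.13.1, STAR 2.7.9a, featureCounts 1.6.1 and mm10. The study's methods state filtering with fastp and alignment by STAR to GRCm38, the same build. For this assay they take gene counts from the STAR output and do not name featureCounts, so the tool behind the deposited counts is uncertain. The deposited table held expected counts, fragments per gene with some values fractional (8.61%), over whole transcript spans, introns included, and the length of each span in bp, another column of the deposited table. Yeast spike-in RNA, added before enrichment, was not used for scaling, and strand use in counting is not given in the sources used here.

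The 9 genes, the 5 pathway lists and the marker lists were chosen with earlier results of these data known, and 1 gene of the lists is not reported here and was left out of their counts and sums. Counts were rounded to whole numbers. CPM were computed from the table totals, and levels of different genes were compared per kb, with the order in CPM as an alternative. Following the study's methods, genotypes were compared with the DESeq2 1.42.0 Wald test (R 4.3.3, default size factors and independent filtering, target 0.1, no covariate) with Benjamini-Hochberg adjustment over the 10624 genes left. A call required an adjusted p under 0.05, a change of 1.2-fold or more and 1 CPM or more on average. Named genes were the 9 genes and Tox4, each called gene of the pathway lists (or, with none outside the 9, the 2 with the smallest p), and the 3 genes with the most similar profile to each called member. Alternatives were edgeR 4.0.16 quasi-likelihood, limma 3.58.1 voom, TMM and total count factors, other filters and fold thresholds, the replicate number as a block, each library left out in turn (DESeq2, the lone library taken to vary like the other genotype), and, chosen after the data were seen, removal of the trend of fold change with gene length. The tests were also run on simulated counts with changes of known size, and no error rate from them is given here. Figures used Python 3.11.15 and matplotlib 3.10.9. Fragments are not independent molecules, since no molecular identifiers were described.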

Additional observations from a re-analysis of the deposited data

How the results depend on the processing

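Calls differed in number between tests. Over all genes, 249 increased and 182 decreased genes became 48 and 10 with edgeR, 50 and 11 with limma voom, 121 and 72 with DESeq2 and a replicate block, 19 and 9 with edgeR and a replicate block, and 106 and 44 at a fold change of at least 1.5. The replicate numbers did not pair the libraries (correlation of deviations of same-numbered libraries -0.0303 over 11625 genes). Of the 9 genes, 2 were called by DESeq2 and 0 with edgeR, limma voom, either replicate block or the 1.5-fold threshold. At an unadjusted p under 0.05 there were 3 with DESeq2, 2 with edgeR and 4 with limma voom, where 14.3%, 15.6% and 15.8% of all genes tested passed. The adjusted p of Ccr7 with the replicate block was 0.0581 and that of Plxnd1 0.169. Without 1 library, between 61 and 320 genes were increased, between 28 and 126 decreased and between 0 and 1 of the 9 called.

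Called genes of the chemokine receptors (1) and integrins (2) became 0 with edgeR, limma voom, either replicate block and the 1.5-fold threshold, while each was between 0 and 1 without 1 library. The 4 plexin and semaphorin genes became 0 with edgeR, limma voom and the edgeR replicate block, 1 with the DESeq2 replicate block, 2 at 1.5-fold and between 1 and 3 without 1 library. For chemotaxis signalling, 1 became 0 with the edgeR replicate block, 2 with no fold criterion and between 1 and 2 without 1 library. In CPM, ranks were 1 for Ccr9, 2 for Plxnd1, 3 for Ccr7, 4 for Cxcr4 and 5 for Klf2.

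Among the 9 genes, signs turned only for some not called. Log2 fold changes without 1 library ran from -0.0759 to 0.0110 for S1pr1 (above 0 without WT replicate 2), from -0.0111 (without WT replicate 1) to 0.126 for Ccr9, from -0.0415 (without cKO replicate 1) to 0.430 for Ccr4, from -0.120 (without WT replicate 1) to 0.263 for Cxcr4 and from -0.258 (without WT replicate 2; -0.211 without cKO replicate 1) to 0.456 for Itgae. S1pr1 was at 0.0167 with the length trend removed. With the length trend removed, an alternative chosen after the data were seen, Ccr7 (-0.32, adjusted p = 0.0165) and Plxnd1 (-0.31, 0.00518) stayed called, while Tox4 (0.0607), Rag1 (0.0885), Ier5 (0.0539), Btg2 (0.0884), Zfp36 (0.158) and Gimap6 (0.101) were not called and Rras2, at 0.24 on the log2 scale, was under the fold threshold, leaving 3 plexin and semaphorin genes. The cause of these differences was not tested. There were 2 libraries a genotype, and Itgae had at most 148 fragments in a library.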

Other observations

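Ligands of the receptors were looked up after the values of the receptors were seen. Ccl25, the ligand of CCR9 and best known from thymic epithelium, was counted at 30.9 and 34.1 CPM in WT and at 36.6 and 40.4 CPM in cKO, and the cKO libraries were above the WT libraries (log2 fold change 0.24, DESeq2 adjusted p = 0.386). No other gene of the annotation overlaps it. Of the 8 epithelial genes listed, 6 were below 1 CPM in all libraries, and their sum of 31.8 to 41.2 CPM was nearly all Ccl25. The other ligands were at or near 0: Cxcl12 was at most at 0.0205 CPM, Ccl21a at most at 0.0252 CPM and Ccl22 at most at 0.452 CPM, and Ccl19 and Ccl17 had no fragment in any library. Cdh1, which encodes the E-cadherin that CD103 binds, was at 0.801 to 1.06 CPM.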
